A study of Mus musculus with 16 samples.

Results

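The genes described here are the complement components, clotting factors, serpins and acute phase proteins of mouse lung. They were chosen by a rule on the form of their gene symbols. The rule uses no measured value, but it was set with earlier results of these data known. The array annotation holds 114 such symbols. Of these, 61 had a probe set whose label could be matched to its values, out of 9866 genes named in all, and 53 were not analysed here. Of the 61 members, 28 exceeded the background level of log2 4 on at least 4 arrays and were tested among 7276 genes. The other 33 comprised 25 under that level on every array and 8 above it on 1 to 3 arrays, where the highest value was 4.75. One tested symbol, C87436, matched by its letters only and is not a gene of these pathways, and F11r is a tight junction molecule that carries a clotting factor's letter.

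Whole lungs of an experimental asthma model were profiled on Affymetrix arrays, 1 array per sample and 4 per group. The 4 groups were BALB-RAG given the allergen ovalbumin (OVA, from egg white), BALB-RAG given phosphate-buffered saline (PBS), BALB/c given OVA and BALB/c given PBS. All lungs were collected on day 22, a day after the last exposure. The line is known from the sample titles alone, which do not say which Rag gene is meant. BALB/c is the inbred background strain, and loss of either Rag gene is known to stop the rearrangement of antigen receptor genes and hence the maturation of T and B cells. Age, sex and the number of mice behind a sample are not given in the sources used here, so p-values refer only to the scatter among these samples, part of which may be technical.

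Transcripts of lymphocytes did not follow the titles on every array. The mean log2 level of 6 T cell markers on replicates 1 to 4 was 3.21, 5.55, 3.25 and 3.18 on arrays labelled BALB-RAG OVA and 4.81, 4.64, 4.24 and 4.46 on those labelled BALB-RAG PBS. It was 5.45 to 6.83 in BALB/c OVA and 4.33 to 4.79 in BALB/c PBS. For T cell markers all 4 arrays labelled BALB-RAG PBS and replicate 2 of BALB-RAG OVA were thus at 4.24 or more, close to or above BALB/c PBS. The mean of 5 B cell markers was 4.16 to 4.54 in BALB-RAG PBS, under the 5.08 to 5.44 of BALB/c PBS. On BALB-RAG OVA replicates 1 to 4 it was 3.22, 5.23, 3.38 and 3.16. Directions below are given for arrays as labelled. The mean of 4 markers of lung epithelium lay between 12.14 and 12.76 on all 16 arrays. Replicates 1 and 2 differed from replicates 3 and 4 across groups, so many differences, but not all, are also given within each of these 2 sets of replicates.

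Complement is a cascade of plasma proteins in which C1q bound to antibody or to dying cells activates the proteases C1r and C1s, while factor B drives the alternative route, and the released C3a and C5a fragments act on receptors of myeloid cells. Clotting starts when tissue factor binds factor VII, which activates factor X, and serpins are inhibitors that trap such proteases. Most of the plasma pool of these proteins comes from liver, yet macrophages, epithelium and endothelium of the lung make some of them locally.

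After OVA, 12 of the 28 tested members rose in BALB/c and none fell. Among all 7276 tested genes 8.73% rose and 6.78% fell (limma, adjusted p under 0.05). The median log2 difference was 0.53 over the 28 members and 0.00 over all tested genes. Since a member that is high only after OVA enters the test through that group, the 21 members above log2 4 on all 16 arrays are given as well: 9 of them rose and 0 fell, with a median of 0.46. On arrays labelled BALB-RAG, 0 of the 28 members were called, where 0.165% of all tested genes were, and 6 members had an unadjusted p under 0.05, as did 7.72% of all tested genes. The members' median there was 0.14, against 0.02 over all tested genes.

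**Figure D1:**
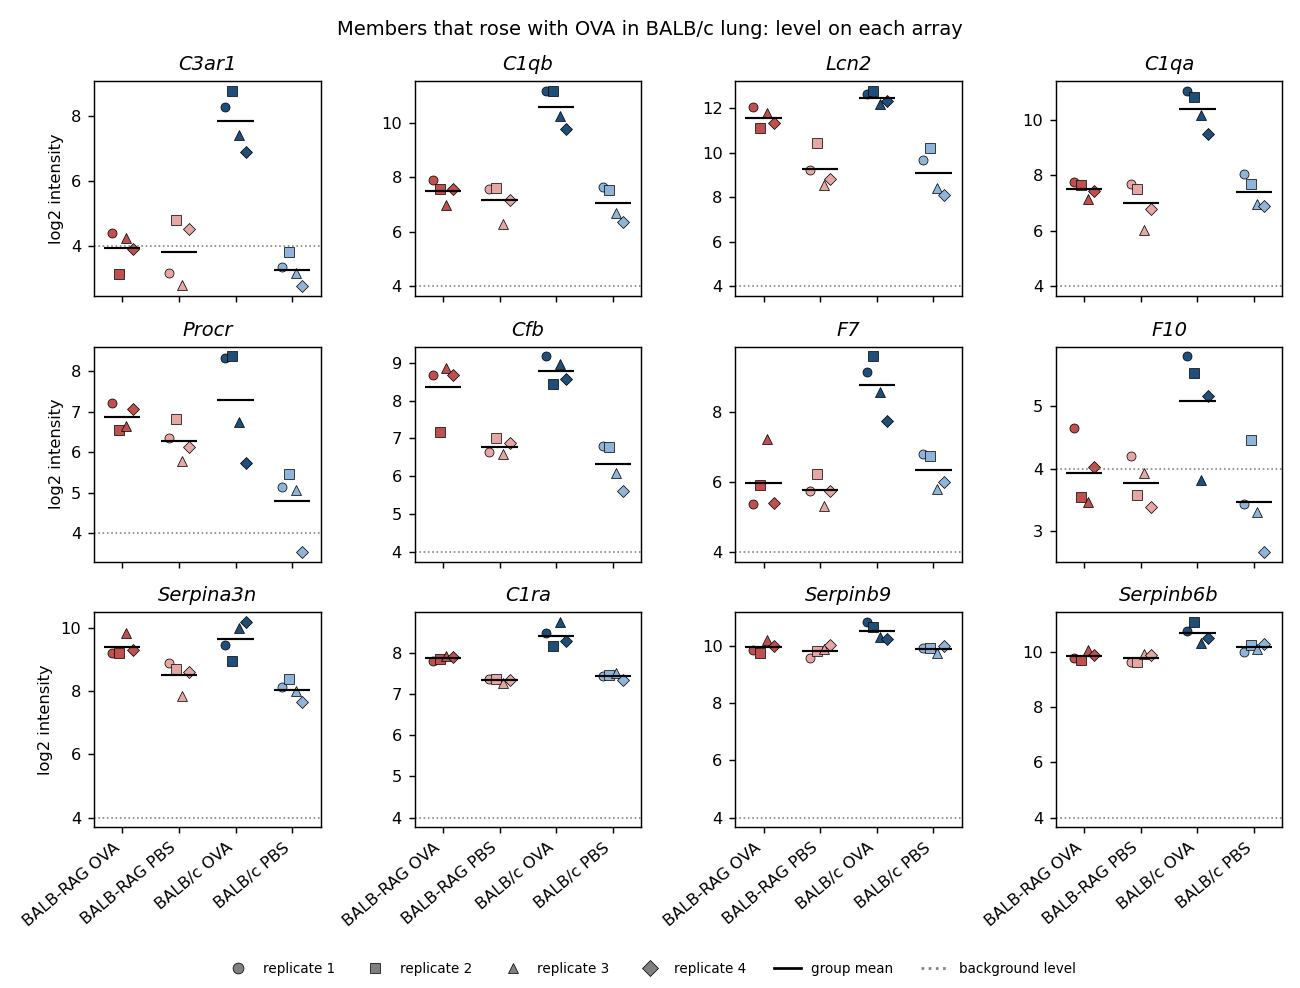
Log2 intensity (vertical axis) of the 12 members that rose with OVA in BALB/c, one panel per gene, with a point per array for BALB-RAG OVA, BALB-RAG PBS, BALB/c OVA and BALB/c PBS (4 arrays each); horizontal lines are group means and the dotted line is the background level of log2 4. For C3ar1 the BALB/c OVA arrays lie between 6.89 and 8.79 and all other arrays at or below 4.80, whereas for Lcn2 both OVA groups lie above both PBS groups.

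Of 6 tested members of the classical and lectin pathways, 3 rose in BALB/c. C1qb, a chain of the C1q recognition molecule, read 11.18, 11.16, 10.26 and 9.77 on BALB/c OVA replicates 1 to 4, against 7.66, 7.55, 6.70 and 6.35 in BALB/c PBS. The groups did not overlap, and C1qb rose by 3.53 ± 0.38 on the log2 scale or 11.5-fold (SE, n = 4 per group, limma adjusted p = 1.9e-05), with 3.56 within replicates 1 and 2 and 3.49 within replicates 3 and 4. Its partner chain C1qa read 11.04, 10.82, 10.16 and 9.50 in BALB/c OVA, against 8.04, 7.69, 6.95 and 6.88 in BALB/c PBS. Each OVA array of C1qa lay above all PBS arrays, and it rose 7.95-fold (2.99 ± 0.38, adjusted p = 9.21e-05, limma). A second C1qb probe set differed by 2.90 in BALB/c and by 0.49 on arrays labelled BALB-RAG.

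In lungs labelled BALB-RAG neither C1q chain was called. C1qb read 7.89, 7.58, 6.99 and 7.57 in BALB-RAG OVA, against 7.59, 7.62, 6.30 and 7.17 in BALB-RAG PBS. These groups overlapped, and the difference was 0.33 ± 0.38 (limma adjusted p = 0.936), while that of C1qa was 0.50 ± 0.38 (adjusted p = 0.858, limma).

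C1ra, which encodes the protease C1r, changed less but with little spread. It read 8.47, 8.17, 8.75 and 8.28 in BALB/c OVA, against 7.44, 7.46, 7.52 and 7.34 in BALB/c PBS. The groups were separate, and C1ra rose 1.97-fold (0.98 ± 0.12, limma adjusted p = 6.73e-05). Among arrays labelled BALB-RAG it read 7.80, 7.85, 7.92 and 7.89 after OVA, against 7.36, 7.37, 7.26 and 7.35 after PBS. Here too every OVA array lay above every PBS array, but the difference of 0.53 ± 0.12 missed the threshold (adjusted p = 0.0952, limma). It passed when the set of replicates (1 and 2 against 3 and 4) was a term of the fit.

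The remaining classical and lectin members were not called in either line in the fit without these terms. C1s1, the C1s protease, differed by 0.46 ± 0.17 in BALB/c (limma adjusted p = 0.0873) and by 0.32 ± 0.17 on arrays labelled BALB-RAG. The BALB/c value passed with the replicate number as a block and with the replicate set as a term (adjusted p = 0.0219 and 0.0123, limma). C2, which C1s cleaves, differed by −0.16 ± 0.21 in BALB/c, and Masp1, a protease of the lectin pathway, by −0.76 ± 0.35. Masp1 was above log2 4 on 8 of the 16 arrays. Masp2 was under that level on all arrays.

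Cfb, factor B of the alternative pathway, responded to OVA in BALB/c and also had high values on arrays labelled BALB-RAG. It read 9.17, 8.43, 8.98 and 8.57 in BALB/c OVA, against 6.79, 6.77, 6.08 and 5.62 in BALB/c PBS. The groups did not overlap, and Cfb rose 5.57-fold (2.48 ± 0.34, limma adjusted p = 0.000143), with 2.03 within replicates 1 and 2 and 2.93 within replicates 3 and 4. For the BALB-RAG label, Cfb read 8.69, 7.18, 8.85 and 8.68 after OVA, against 6.63, 7.02, 6.58 and 6.88 after PBS. Replicate 2, the OVA array with lymphocyte transcripts, lay apart at 7.18 yet above all PBS arrays. The difference of 1.57 ± 0.34 was not called (adjusted p = 0.0754, limma), and without that array it was 1.96 with an adjusted p of 0.00196. Serping1, the C1 inhibitor, stood high at 10.81 to 11.41 on all arrays and differed by 0.02 ± 0.14 in BALB/c. C4bp and C8b were under log2 4 on every array, and Cfi, factor I, exceeded it on 2 BALB/c OVA arrays only.

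Of the anaphylatoxin receptors, 1 rose in BALB/c, with the largest difference of the 28 tested members there. C3ar1, the receptor for C3a, read 8.28, 8.79, 7.42 and 6.89 in BALB/c OVA, against 3.36, 3.81, 3.16 and 2.76 in BALB/c PBS. All PBS arrays were under the background level, so the rise was at least 14.4-fold (4.58 ± 0.47, limma adjusted p = 1.25e-05; 4.95 and 4.20 within the 2 replicate sets). Its second probe set differed by 3.43 in BALB/c. Under the BALB-RAG label, C3ar1 read 4.41, 3.15, 4.26 and 3.91 after OVA and 3.18, 4.80, 2.80 and 4.54 after PBS, all near the background. C5ar1, the receptor for C5a on neutrophils and macrophages, differed by −0.57 ± 0.36 in BALB/c and by 0.09 ± 0.36 on arrays labelled BALB-RAG, with overlapping groups in both (adjusted p = 0.356 and 0.999, limma).

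Macrophage markers rose in BALB/c together with C1qa, C1qb and C3ar1. All 4 measured markers of the list of 10 rose in BALB/c after OVA, namely Csf1r, the receptor of a macrophage growth factor, by 1.17 ± 0.19, the integrin Itgax by 2.91 ± 0.30, the membrane protein Ms4a7 by 4.15 ± 0.54 and the haemoglobin scavenger receptor Cd163 by 0.86 ± 0.26 (limma adjusted p of 0.000625, 1.14e-05, 0.000102 and 0.0332). The mean of these markers was 8.0 to 8.81 in BALB/c OVA, against 5.81 to 6.52 in BALB/c PBS. It was 6.26 to 6.93 in BALB-RAG OVA, against 5.74 to 6.52 in BALB-RAG PBS. Between the lines after OVA, 3 of the 4 markers were lower on arrays labelled BALB-RAG, but Cd163 was not. It differed by 0.54 ± 0.26 after OVA and by 0.82 ± 0.26 after PBS, BALB-RAG minus BALB/c (limma adjusted p = 0.155 and 0.0952). Markers of other cells rose alongside. The goblet cell markers Clca1, Muc5b and Agr2, 3 of 3, rose by 8.89, 2.50 and 2.73 (limma adjusted p of 1.25e-05, 0.000139 and 0.000991), and their mean was 9.55 to 10.29 in BALB/c OVA, against 4.54 to 5.96 in BALB/c PBS. It was 4.50 to 6.43 in BALB-RAG OVA, against 4.52 to 6.95 in BALB-RAG PBS. Of 6 T cell markers 4 rose, of 4 plasma cell markers 2 (Igha by 3.82 and Jchain by 5.05), and of 4 fibroblast markers 2 (Col1a1 by 1.47 and Col1a2 by 1.60). The plasma cell mean was 9.81 to 11.16 in BALB/c OVA, against 7.73 to 9.04 in BALB/c PBS, and the fibroblast mean 8.70 to 9.05, against 8.22 to 8.58. In BALB-RAG the plasma cell mean was 6.44 to 10.41 after OVA, against 8.54 to 9.83 after PBS, and the fibroblast mean 8.41 to 9.02, against 9.19 to 9.67.

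Markers of 4 other cell types fell in BALB/c, in endothelium 2 of 5, in mesothelium 1 of 4, in adipose tissue 1 of 2 and the only one measured for club cells. No tested marker was called for lung epithelium, neutrophils, eosinophils, mast cells, platelets, B cells, NK cells or heart, and those of liver and erythroid cells were not tested. Of 4 measured markers each, only 2 for eosinophils and 1 for mast cells were tested. The mean of the 4 eosinophil markers was 5.95, 6.18, 4.30 and 3.94 in BALB/c OVA, against 3.86 to 3.99 in BALB/c PBS. On arrays labelled BALB-RAG no list had a called marker. Responses were smaller there than in BALB/c for 3 macrophage, 4 T cell, 3 goblet, 2 plasma cell and 2 fibroblast markers, and larger for 1 of endothelium and 1 of club cells. The part of these cells in the results was not tested, and in whole lung more cells of a type and more RNA per cell cannot be told apart.

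**Figure D2:**
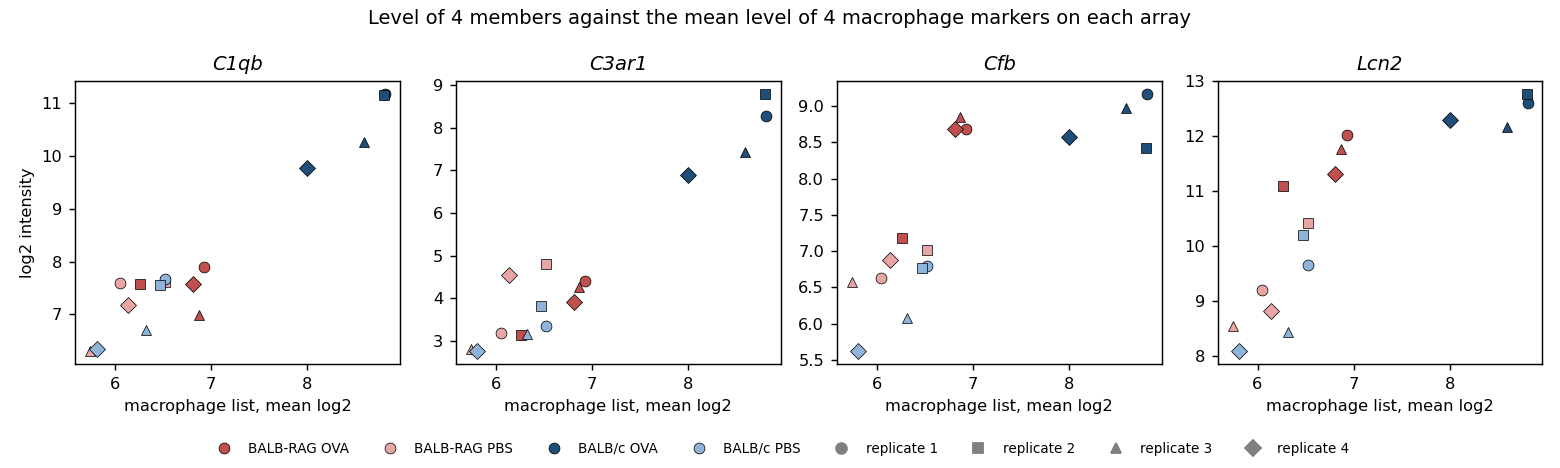
Log2 intensity of C1qb, C3ar1, Cfb and Lcn2 (vertical axes) against the mean log2 level of 4 macrophage markers (horizontal axes), one point per array, coloured by group and shaped by replicate. C1qb and C3ar1 are high only on the BALB/c OVA arrays, where the marker mean is 8.0 or more, while Cfb and Lcn2 are also high on BALB-RAG OVA arrays, where it is 6.26 to 6.93.

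The initiating factors of clotting differed from each other. F7, factor VII, read 9.17, 9.61, 8.58 and 7.76 in BALB/c OVA, against 6.81, 6.75, 5.80 and 6.01 in BALB/c PBS. The groups were separate, and F7 rose 5.40-fold (2.43 ± 0.43, limma adjusted p = 0.00108; 2.61 and 2.26 within the 2 replicate sets). On arrays labelled BALB-RAG it read 5.39, 5.92, 7.23 and 5.41 after OVA, against 5.76, 6.23, 5.33 and 5.74 after PBS. Only replicate 3 stood above the PBS arrays there, and the difference was 0.22 ± 0.43 (adjusted p = 0.993, limma).

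F10, factor X, which factor VII activates, lay near the background. It read 5.80, 5.53, 3.82 and 5.17 in BALB/c OVA, against 3.43, 4.46, 3.31 and 2.67 in BALB/c PBS. The groups overlapped through OVA replicate 3, and F10 rose by 1.61 ± 0.42 (limma adjusted p = 0.0159), or 2.02-fold with values under log2 4 set to 4. Leaving out OVA replicate 1 or 2 or PBS replicate 4 ended this call (adjusted p of 0.0594, 0.0569 and 0.0594). The second F10 probe set exceeded log2 4 on 3 arrays.

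F3, tissue factor, was high in every group and was not called in BALB/c (−0.14 ± 0.21, limma adjusted p = 0.751). Its difference was −0.73 within replicates 1 and 2 and 0.45 within replicates 3 and 4, so these sets disagreed in sign. F5, the cofactor factor V, read 7.03, 7.30, 4.66 and 3.94 in BALB/c OVA, against 4.59, 4.88, 3.86 and 3.74 in BALB/c PBS. It was high on replicates 1 and 2 of the OVA group only, and the difference of 1.46 ± 0.71 was not called (adjusted p = 0.201, limma). The mean of 4 eosinophil markers was 5.95, 6.18, 4.30 and 3.94 on the same OVA arrays, against 3.86 to 3.99 in BALB/c PBS, and its part in these values was not tested. The factors F2, F9 and F12, which liver makes, were under log2 4 on all arrays.

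Among the anticoagulants, Procr, the endothelial receptor of protein C, was the single tested member of 6. It read 8.33, 8.37, 6.75 and 5.74 in BALB/c OVA, against 5.15, 5.45, 5.07 and 3.53 in BALB/c PBS. The groups did not overlap, and Procr rose by 2.50 ± 0.52 (limma adjusted p = 0.00373), or 5.21-fold with the low PBS value set to log2 4. In lungs labelled BALB-RAG it read 7.21, 6.56, 6.65 and 7.06 after OVA, against 6.36, 6.83, 5.78 and 6.12 after PBS, a difference of 0.60 ± 0.52 (adjusted p = 0.878, limma). Proc, its ligand, and the antithrombin gene Serpinc1 were under log2 4 throughout.

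Of 3 fibrinolysis members only Serpinb2, an inhibitor of plasminogen activators, was tested. It read 6.30, 7.16, 4.60 and 3.25 in BALB/c OVA, against 2.85, 3.01, 3.04 and 2.99 in BALB/c PBS. The groups did not overlap, but replicates differed widely and the difference of 2.35 ± 0.78 just missed the threshold (limma adjusted p = 0.0535; 3.80 and 0.91 within the 2 replicate sets). It passed in 8 of 26 alternatives, among them the replicate block and the term for the replicate sets (adjusted p = 0.0349 and 0.0222, limma). Among arrays labelled BALB-RAG, Serpinb2 read 4.88, 2.94, 2.94 and 4.34 after OVA, against 2.89, 5.79, 3.03 and 2.68 after PBS. The PBS array at 5.79, replicate 2, also read 6.50 for F5, where the other 3 lay between 3.73 and 3.88. On it the mean of 4 platelet markers was 8.56, against 4.78 to 5.19 on the other BALB-RAG PBS arrays, and that of 7 neutrophil markers 7.82, against 4.83 to 5.16; the part of these cells was not tested.

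**Figure D3:**
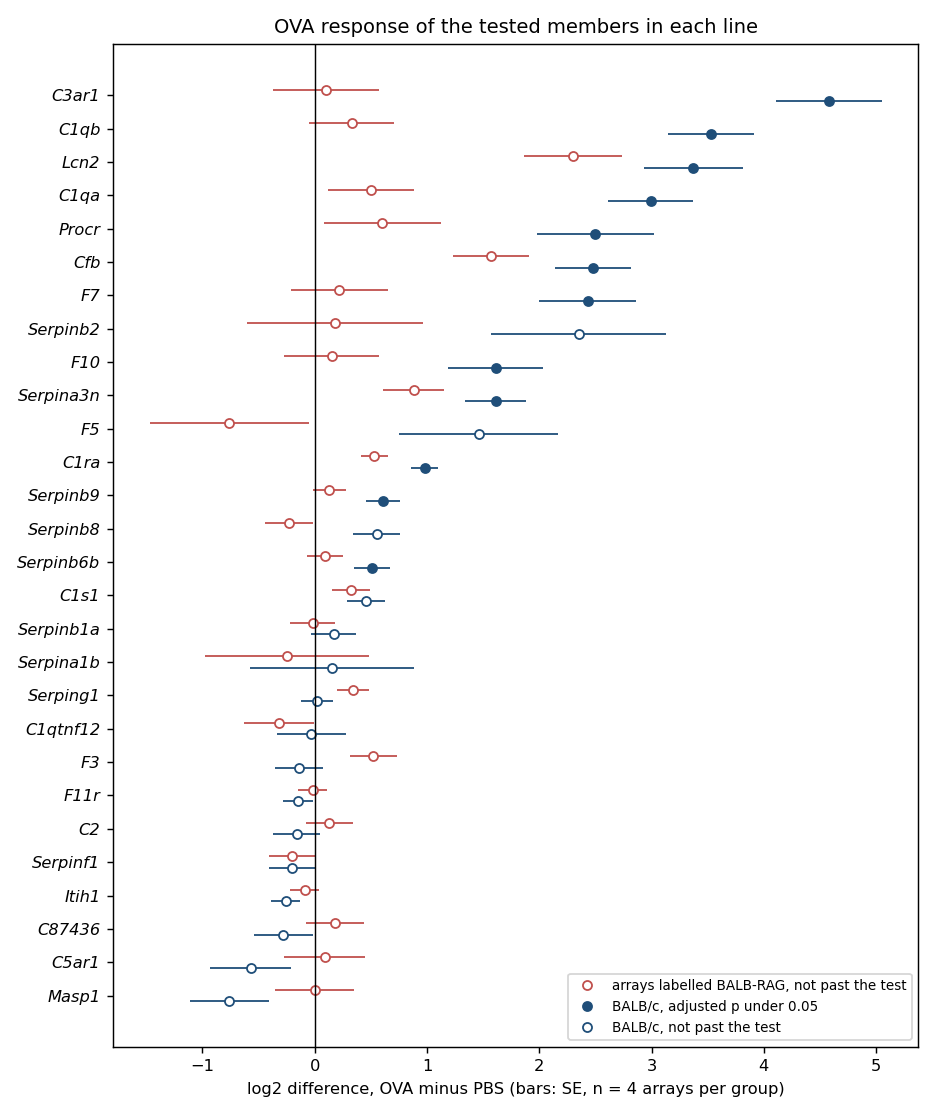
Log2 difference, OVA minus PBS (horizontal axis), for the 28 tested members on arrays labelled BALB-RAG (red) and in BALB/c (blue), with SE as bars (n = 4 arrays per group); filled points have an adjusted p under 0.05. The 12 filled points are all BALB/c rises, from 0.51 for Serpinb6b to 4.58 for C3ar1, and Lcn2 (2.30) and Cfb (1.57) have the largest values on arrays labelled BALB-RAG.

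Serpins of clade A are mainly secreted. Serpina3n, an inhibitor of granule proteases and an acute phase protein in mouse, read 9.46, 8.96, 9.99 and 10.18 in BALB/c OVA, against 8.13, 8.38, 8.0 and 7.65 in BALB/c PBS. The groups were separate, and it rose 3.05-fold (1.61 ± 0.27, limma adjusted p = 0.000875; 0.96 and 2.26 within the 2 replicate sets). For the BALB-RAG label, it read 9.19, 9.21, 9.83 and 9.29 after OVA, against 8.87, 8.70, 7.83 and 8.59 after PBS. The OVA arrays were all above the PBS arrays, and the difference of 0.88 ± 0.27 was not called (adjusted p = 0.309, limma).

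Clade B serpins stay mostly inside cells. Serpinb9, the granzyme B inhibitor of immune cells, read 10.86, 10.68, 10.34 and 10.26 in BALB/c OVA, against 9.96, 9.95, 9.78 and 10.01 in BALB/c PBS. It rose 1.53-fold with no overlap (0.61 ± 0.15, limma adjusted p = 0.013). Serpinb6b, a related gene, rose 1.42-fold (0.51 ± 0.16, adjusted p = 0.036, limma), but this call was lost in 8 of 29 alternatives, 5 of which left out 1 BALB/c array. Its difference was 0.79 within replicates 1 and 2 and 0.23 within replicates 3 and 4. Serpinb8 differed by 0.55 ± 0.21 with separate groups (adjusted p = 0.0886, limma) and passed in 2 of 29 alternatives, and Serpinb1a, an inhibitor of neutrophil proteases, by 0.17 ± 0.20. Serpinf1, pigment epithelium-derived factor, differed by −0.20 ± 0.21.

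Other members were not called or not tested. The adipokine C1qtnf12 differed by −0.03 ± 0.31 in BALB/c, F11r by −0.15 ± 0.13 and C87436 by −0.28 ± 0.26. Of the members not tested, C1qtnf3, Itih2, Serpina10, Serpina11, Serpinb5 and Serpind1 exceeded log2 4 on 1 to 3 arrays, as did Cfi and Orm2. The highest of these values, 4.75, was read for Serpina10, an inhibitor of factor X. Besides the genes named with their pathways, C1ql1, C1ql3, C1qtnf4, Plau, Serpina3a, Serpina5, Serpina12, Serpinb1b, Serpinb9b, Serpinb9c, Serpinb9g, Serpinf2, Serpini1 and Serpini2 were under log2 4 on every array.

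Lcn2, lipocalin 2, which binds bacterial iron carriers, rose strongly in BALB/c and had high values after OVA on arrays labelled BALB-RAG too. It read 12.61, 12.77, 12.17 and 12.30 in BALB/c OVA, against 9.65, 10.21, 8.43 and 8.09 in BALB/c PBS. The groups were far apart, and Lcn2 rose 10.3-fold (3.37 ± 0.44, limma adjusted p = 0.00011; 2.77 and 3.97 within the 2 replicate sets). Under the BALB-RAG label it read 12.03, 11.10, 11.76 and 11.32 after OVA, against 9.21, 10.43, 8.54 and 8.82 after PBS. Again every OVA array lay above every PBS array, and the difference of 2.30 ± 0.44, a 4.92-fold higher mean, missed the threshold narrowly (adjusted p = 0.0534, limma). It passed in 14 of 29 alternatives, among them the fit without BALB-RAG OVA replicate 2 (adjusted p = 0.0389).

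Neutrophils are a known source of Lcn2. The mean of 7 of the 10 neutrophil markers was 5.22 to 5.47 in BALB/c OVA, against 4.78 to 7.45 in BALB/c PBS, and 5.49 to 6.12 in BALB-RAG OVA, against 4.83 to 7.82 in BALB-RAG PBS. None of the 5 tested markers was called in either line, with medians of −0.40 in BALB/c and 0.30 on arrays labelled BALB-RAG. Elane was under log2 4 on all arrays. In each PBS group replicate 2 had the highest marker mean (7.45 in BALB/c, 7.82 in BALB-RAG) and the highest Lcn2 (10.21 and 10.43). The other BALB-RAG PBS arrays had means of 4.83 to 5.16, under all BALB-RAG OVA arrays. In BALB/c PBS, replicates 1 and 2 lay above all BALB/c OVA arrays, and replicates 3 and 4 (5.09 and 4.78) under them. The part of neutrophils in the Lcn2 values was not tested. Of the liver markers 6 of 10 were measured and none reached the test, with Alb, Apoa1, Apoa2, Fga and Cyp2c29 under log2 4 on every array. Itih1, a plasma protein that binds hyaluronan, differed by −0.26 ± 0.13 in BALB/c. Saa1, Saa4 and A2m, acute phase proteins of liver, were under log2 4 on all arrays, and Orm2 exceeded it on 2.

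RefSeq promoter entries (GRCm38.p6) matched 47 of the 61 members, of which 21 were tested; C1qa and Cfb are named only. Of the 10 risers with an entry, 4 held a searched motif and 6 held none (C1qb, C1ra, C3ar1, F7, Serpina3n and Serpinb6b). The 4 with a match are shown so that the letters can be read in place, with C3ar1, the member of largest response, as one of the 6 without. Each run is the 250 bases before the start, 5′ to 3′ on the gene's strand, with motif matches in capitals. Lcn2 lies on the minus strand at chr2:32387740-32387989, Procr on the plus strand at chr2:155750967-155751216 and F10 on the plus strand at chr8:13037058-13037307. Serpinb9 lies on the plus strand at chr13:33004291-33004540 and C3ar1 on the minus strand at chr6:122856158-122856407.
Lcn2: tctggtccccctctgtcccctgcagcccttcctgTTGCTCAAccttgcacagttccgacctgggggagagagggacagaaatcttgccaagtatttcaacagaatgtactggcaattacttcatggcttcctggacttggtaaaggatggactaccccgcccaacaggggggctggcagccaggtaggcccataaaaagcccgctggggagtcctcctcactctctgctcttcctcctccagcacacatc
Procr: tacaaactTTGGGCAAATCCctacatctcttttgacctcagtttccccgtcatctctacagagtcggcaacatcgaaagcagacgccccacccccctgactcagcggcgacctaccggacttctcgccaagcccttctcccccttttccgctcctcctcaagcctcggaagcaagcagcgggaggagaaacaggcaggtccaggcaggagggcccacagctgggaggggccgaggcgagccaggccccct
F10: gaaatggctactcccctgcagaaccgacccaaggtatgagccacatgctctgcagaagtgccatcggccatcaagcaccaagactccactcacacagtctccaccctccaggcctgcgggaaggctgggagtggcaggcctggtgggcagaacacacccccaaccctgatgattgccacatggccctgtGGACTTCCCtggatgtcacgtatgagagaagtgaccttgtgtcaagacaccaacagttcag
Serpinb9: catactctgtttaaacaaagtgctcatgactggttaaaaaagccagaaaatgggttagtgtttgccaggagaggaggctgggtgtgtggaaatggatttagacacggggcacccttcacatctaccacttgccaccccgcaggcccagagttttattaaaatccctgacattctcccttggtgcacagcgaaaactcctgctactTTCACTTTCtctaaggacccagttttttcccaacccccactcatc
C3ar1: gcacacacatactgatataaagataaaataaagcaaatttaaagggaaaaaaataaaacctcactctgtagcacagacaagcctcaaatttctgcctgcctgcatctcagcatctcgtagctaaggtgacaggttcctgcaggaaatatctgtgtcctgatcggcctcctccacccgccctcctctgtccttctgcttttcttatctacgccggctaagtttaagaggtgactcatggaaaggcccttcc

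Both strands were searched for 6 motifs. The Lcn2 capitals, from −216 to −209 relative to the start, match TTNNGCAA, which C/EBP factors bind and which 9.56% of all 32851 promoters hold. In Procr that motif (−242 to −235) overlaps a match to GGANTTNCC of NF-kB (−239 to −231), held by 3.15% of promoters, and F10 has the NF-kB letters from −61 to −53. Serpinb9 matches the interferon response element GAAANNGAA from −45 to −37, held by 7.13%. C3ar1 matched none of the 6, which also included TTCNNNGAA of STAT factors (7.02%), GAGGAAGT of PU.1 (2.44%) and the E-box CACGTG (6.02%). Of 47 member genes with an entry, 12 held C/EBP letters, 5 of them tested genes (C1s1, Lcn2, Procr, Serpina1b and Serpinb2), and 0 held PU.1 letters. A gene was counted if any of its entries matched, so these counts of genes cannot be set against the percentages, which are shares of single promoters. These are descriptions of letters and do not show binding.

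The responses of the lines were then compared directly. Of the 28 members, 4 had a smaller response on arrays labelled BALB-RAG than in BALB/c and 0 a larger one, where 4.63% and 3.86% of all tested genes did. These 4 were C3ar1 (−4.47 ± 0.67, limma adjusted p = 0.000649), C1qb (−3.20 ± 0.54, adjusted p = 0.0016), C1qa (−2.49 ± 0.54, adjusted p = 0.00956) and F7 (−2.21 ± 0.60, adjusted p = 0.0332). Within replicates 1 and 2 the differences were −5.16, −3.44, −2.95 and −2.94 in that order, and within replicates 3 and 4 they were −3.78, −2.95, −2.04 and −1.48. The F7 call was lost in 10 of 16 fits that left out 1 array (adjusted p of 0.0505 to 0.0738). Among the 21 members above log2 4 on all arrays, which leave out C3ar1, 3 had a smaller response and 0 a larger one. Their median was −0.28.

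For Cfb and Lcn2 no difference between the responses was called, which does not show that they were alike. The BALB-RAG response minus the BALB/c response was −0.91 ± 0.48 for Cfb (limma adjusted p = 0.3), −1.07 ± 0.63 for Lcn2 (adjusted p = 0.361, limma) and −0.45 ± 0.17 for C1ra (adjusted p = 0.129, limma). Procr (−1.90 ± 0.73, adjusted p = 0.131, limma) was not called either, and it passed with the replicate set as a term. The members' median was −0.43, against 0.01 over all genes tested.

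After OVA, 7 members were lower and 2 higher on arrays labelled BALB-RAG than in BALB/c, where 12.1% of tested genes were lower and 11.6% higher. The lower ones included C3ar1 (−3.91 ± 0.47, limma adjusted p = 2.76e-05), C1qb (−3.09 ± 0.38, adjusted p = 3.32e-05), C1qa (−2.88 ± 0.38, adjusted p = 6.54e-05) and F7 (−2.79 ± 0.43, adjusted p = 0.000203). C1ra (−0.56 ± 0.12), Serpinb6b (−0.81 ± 0.16) and Serpinb9 (−0.55 ± 0.15) were lower as well. Within replicates 1 and 2 these differences were, in the order named, −4.76, −3.44, −3.22, −3.73, −0.50, −1.18 and −0.94. Within replicates 3 and 4 they were −3.07, −2.74, −2.54, −1.85, −0.61, −0.44 and −0.17. Among the 21 members above log2 4 on all arrays, which leave out C3ar1 and Serpina1b, 6 were lower and 1 higher. F5 (−2.01) and F10 (−1.15) were not called, but each passed in 9 of 27 alternatives. The Serpinb9 call ended without BALB/c OVA replicate 1 or 2 (adjusted p = 0.0598 and 0.0511, limma).

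Tissue factor was among the higher ones. Markers of heart and adipose tissue were higher on the same arrays, 3 of 3 and 2 of 2, with medians of 2.96 and 3.78. So were 2 of 4 mesothelium markers and 1 each of endothelium, fibroblasts and club cells, while 2 of 4 fibroblast markers were lower. After PBS, 0 of 3 heart markers and 2 of 2 adipose markers were higher, with medians of 1.55 and 2.59. The heart mean was 9.37 to 10.78 in BALB-RAG OVA, against 7.16 to 8.22 in BALB/c OVA, and the adipose mean 6.89 to 8.44, against 4.61 to 5.86; the part of these tissues was not tested. F3 read 9.09, 8.91, 9.35 and 8.80 in BALB-RAG OVA, against 7.90, 7.91, 8.42 and 8.79 in BALB/c OVA. The groups touched without overlap, and F3 was 1.72-fold higher (0.78 ± 0.21, limma adjusted p = 0.012; 1.10 and 0.47 within the 2 replicate sets). After PBS its difference was 0.13 ± 0.21 (adjusted p = 0.858, limma). Serpina1b, an antitrypsin gene, read 5.15, 6.78, 2.62 and 4.26 in BALB-RAG OVA, while all 4 BALB/c OVA arrays lay between 2.30 and 3.05. It was at least 1.63-fold higher (2.12 ± 0.73, adjusted p = 0.0479, limma), with BALB-RAG replicate 3 at background, and this call was kept in only 3 of 16 fits that left out 1 array.

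After PBS no member was called between the lines, where 3.9% of all tested genes were, and 3 members had an unadjusted p under 0.05, as did 15.9% of all tested genes. Serpina1b read 5.83, 5.98, 2.70 and 5.29 in BALB-RAG PBS, against 2.31 to 2.59 in BALB/c PBS (2.52 ± 0.73, limma adjusted p = 0.071). Replicate 3 was low in both BALB-RAG groups. On that replicate the mean of 3 adipose markers was also the lowest of its group, 6.89 in BALB-RAG OVA and 6.96 in BALB-RAG PBS, where the other BALB-RAG arrays lay between 7.94 and 8.73. The mean of 3 heart markers was likewise lowest on replicate 3, at 9.37 in BALB-RAG OVA and 8.70 in BALB-RAG PBS, where the other BALB-RAG arrays lay between 9.68 and 11.55; the part of either tissue was not tested. The antitrypsin genes are near-identical copies, so this probe set may read several of them. Procr read 6.36, 6.83, 5.78 and 6.12 in BALB-RAG PBS, all above the 3.53 to 5.45 of BALB/c PBS (1.47 ± 0.52, adjusted p = 0.141, limma).

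**Figure D4:**
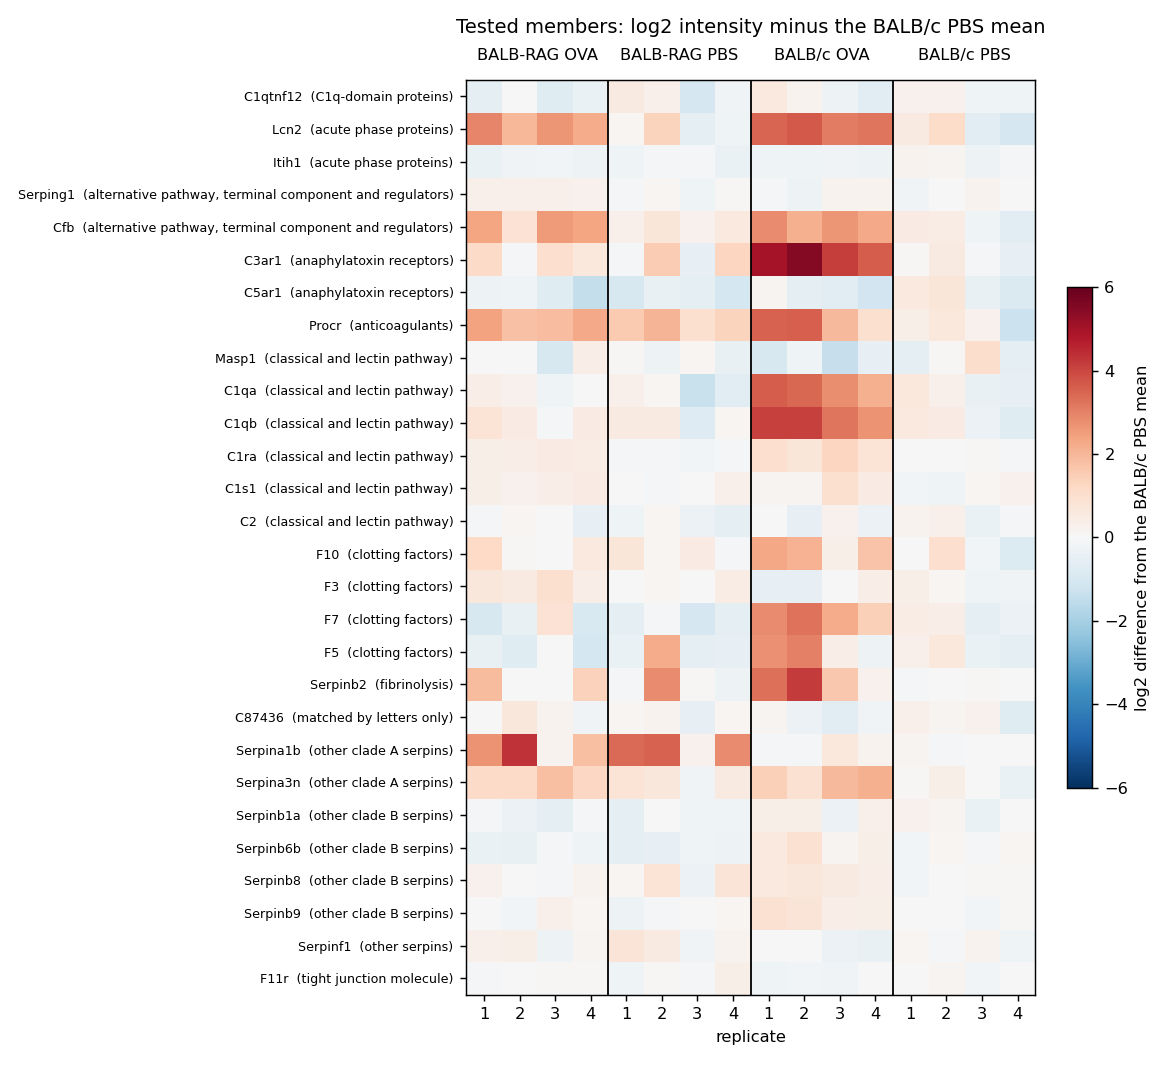
Log2 intensity of the 28 tested members minus the BALB/c PBS mean of each gene (colour scale, red higher and blue lower), with a column per array in the order BALB-RAG OVA, BALB-RAG PBS, BALB/c OVA and BALB/c PBS and a row per gene grouped by role. C1qa, C1qb, C3ar1 and F7 are red mainly in the BALB/c OVA columns, Lcn2 and Cfb in both OVA groups, and Serpina1b in BALB-RAG columns other than replicate 3.

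Over the 16 arrays, with each group's mean subtracted, the genes most like C1qa were C1qb, Apoc1, Get3 and Hebp1 (Pearson r of 0.96 each) and Ctsz (0.95). For Serpina3n they were Selenbp1 (0.87), Adcy4 (0.85), Nrbp1 (0.84), Smad6 and Tfdp2 (0.83 each). These values describe 16 arrays that share the shift between the replicate sets, among 7276 genes compared.

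Other genes of these pathways were taken from lists that do not use the symbol rule. Of 13 further complement genes tested, 0 rose and 2 fell in BALB/c after OVA, with a median of 0.09, where 8.73% of all tested genes rose and 6.78% fell. They were Vtn, vitronectin, an inhibitor of the terminal complex (−1.32 ± 0.38, limma adjusted p = 0.0272), and Cd93, an endothelial surface protein once described as a C1q receptor (−0.71 ± 0.19, adjusted p = 0.0182, limma). Hc, the gene of complement C5, lay at 11.77 to 12.13 in BALB/c OVA, against 11.57 to 11.78 in BALB/c PBS. It was lower on arrays labelled BALB-RAG, at 10.64 to 11.01 after OVA (−1.08 ± 0.12 against BALB/c OVA, adjusted p = 1.69e-05, limma) and at 11.09 to 11.35 after PBS (−0.46 ± 0.12 against BALB/c PBS, adjusted p = 0.0482, limma). Its response differed by −0.62 ± 0.17 between the lines (adjusted p = 0.0395, limma). After OVA 3 of the 13 were lower on arrays labelled BALB-RAG than in BALB/c and 1 was higher, with a median of 0.01. Over all tested genes 12.1% were lower and 11.6% higher in that comparison. Besides Hc, the lower ones were Itgam, a chain of complement receptor 3 (−2.24 ± 0.47, adjusted p = 0.0023, limma), and Cr2, complement receptor 2 of B cells (−2.05 ± 0.44, adjusted p = 0.00289, limma), and the higher one was Vtn (1.24 ± 0.38, adjusted p = 0.0272, limma). Of 4 tested B cell markers 3 were lower as well, and their part was not tested.

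Of 9 further clotting genes tested, 2 rose and 0 fell in BALB/c, with a median of 0.04, beside the shares of 8.73% and 6.78% over all genes. Tfpi2, an inhibitor of plasmin and the tissue factor complex, read 5.45, 6.65, 5.72 and 5.93 in BALB/c OVA, against 4.29, 3.84, 4.37 and 4.32 in BALB/c PBS (1.73 ± 0.24, limma adjusted p = 0.000182). It was under log2 4 on all arrays labelled BALB-RAG. Fgl2, a prothrombinase of macrophages and T cells, rose by 0.87 ± 0.27 (adjusted p = 0.0364, limma).

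Of 6 further acute phase proteins tested, 3 rose and 0 fell in BALB/c, with a median of 0.91 (over all genes 8.73% rose and the median was 0.00). Lrg1, a secreted glycoprotein, rose by 1.89 ± 0.41 (limma adjusted p = 0.00521), fibronectin (Fn1) by 1.08 ± 0.15 (adjusted p = 0.000144, limma) and Cd14, the endotoxin co-receptor, by 1.02 ± 0.28 (adjusted p = 0.0196, limma). On arrays labelled BALB-RAG the differences were 1.07 for Lrg1, −0.36 for Fn1 and 1.09 for Cd14, none called. Fn1 was already high in BALB-RAG PBS, at 11.36 to 11.71, against 10.37 to 10.71 in BALB/c PBS (1.01 ± 0.15, adjusted p = 0.00138, limma). It lay at 11.38 to 11.97 in BALB/c OVA, and its response differed by −1.44 ± 0.21 between the lines (adjusted p = 0.000532, limma). Cd14 read 8.84, 8.78, 8.92 and 8.66 in BALB-RAG OVA, all above the 7.26 to 8.08 of BALB-RAG PBS.

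Of 11 tested genes that induce acute phase proteins, 1 rose and 1 fell in BALB/c, with a median of 0.15. Over all tested genes 8.73% rose and 6.78% fell. The one that rose was Lif, a cytokine of the interleukin 6 family, by 0.82 ± 0.16 (limma adjusted p = 0.00284). The one that fell was Cebpd, a C/EBP transcription factor of acute phase genes, and it moved in opposite directions in the lines. It read 9.38, 9.07, 8.97 and 9.30 in BALB/c OVA, against 11.01, 9.91, 10.71 and 10.69 in BALB/c PBS (−1.40 ± 0.26, adjusted p = 0.00142, limma). In lungs labelled BALB-RAG it read 10.58, 10.30, 10.36 and 10.48 after OVA, against 8.63, 9.60, 9.11 and 8.31 after PBS (1.52 ± 0.26, adjusted p = 0.0213, limma). Neither pair of groups overlapped, and the responses differed by 2.92 ± 0.36 (adjusted p = 0.000131, limma). The means of Lcn2 and Cfb were higher after OVA in both lines, and the part of Cebpd in them was not tested.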

How the data were processed

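Whole mouse lung RNA of 16 samples was measured on Affymetrix arrays. Per the submitters' processing notes the authors used GCRMA, a background, quantile and probe summary method of unstated version. The deposited unit is linear intensity, and values span 2.32 to 35181. Log2 was taken, with no further normalisation. Array medians were 18.2 to 20.5, and precision is limited by having 4 arrays in a group.

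In the deposited table labels do not stand beside their own values. In 3 runs holding 14300 of 45101 labels, values were taken 64 rows above, 47 rows below and 16168 rows below the label; other labels were dropped. In these runs probe sets of one gene, both above log2 6, then had a median correlation of 0.666 (379 pairs), 0.618 (637 pairs) and 0.630 (152 pairs) across arrays, against 0.161 and 0.129 as deposited in the first 2 runs. At 47 rows above, the second run had 0.027. No submitter document mentions this shift, and every gene name depends on correcting it.

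Symbols came from the platform annotation. The probe set of highest mean stood for its gene, and genes had to exceed log2 4, taken as background, on at least 4 arrays. A fold against a group wholly under that level is written as at least, with low values raised to log2 4. In R 4.3.3 the package limma 3.58.1 was fitted (4 group means over 16 arrays, 12 residual degrees of freedom, empirical Bayes), and p-values were adjusted by Benjamini-Hochberg over 7276 genes at 0.05, in 5 comparisons. On simulated data with the BALB/c design, 64% of genes changed by log2 1 and 93% changed by log2 2 were called over 7276 genes, and 6.55% of calls fell on unchanged genes. The simulated noise was independent between genes and arrays. The real arrays share the shift between the replicate sets, so these rates may not hold for them. Named members are those past the test, listed members of each pathway whatever their result, and the nearest 5 genes of C1qa and Serpina3n; other genes named come from 4 pathway lists and 19 cell type lists. The members, lists and rules were chosen with earlier results of these data known. Promoter sequences are RefSeq's.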

Additional observations from a re-analysis of the deposited data

Results flagged for a closer look

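Single arrays lay far from the other 3 of their group for 8 of 108 groups of 4 looked at over the tested members; chance alone sets about 1 in 20 groups apart in this way. On BALB-RAG PBS replicate 2, F5 read 6.50, against 3.73 to 3.88 on the other arrays of that group, and Serpinb2 read 5.79, against 2.68 to 3.03. On BALB-RAG OVA replicate 2, Cfb read 7.18, against 8.68 to 8.85, and this was the array of its group with T cell transcripts. Serpina3n read 9.83 on BALB-RAG OVA replicate 3, against 9.19 to 9.29. C1ra read 7.26 on BALB-RAG PBS replicate 3, against 7.35 to 7.37, a gap that is small on the log2 scale. Serpinb1a read 7.30 on BALB/c OVA replicate 3, against 7.94 to 8.01. C87436, which only shares letters with the symbols sought, read 5.21 on BALB-RAG PBS replicate 3, against 5.86 to 5.94, and 5.02 on BALB/c PBS replicate 4, against 5.90 to 6.02.

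The OVA response differed between the lines in the fitted test for 4 members. Given as BALB-RAG minus BALB/c on the log2 scale, the differences were −4.47 for C3ar1, −3.20 for C1qb, −2.49 for C1qa and −2.21 for F7.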

How the results depend on the processing

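Of 25 calls on single members, 12 kept their call in every alternative run for them. These numbered 27 to 29 per call, since not every alternative gives a value for every gene and comparison, and 16 of them left out 1 array. Of 717 values in all, 666 kept side and direction, 51 lost the call and 0 changed sign. In BALB/c, 12 members were called, and 10 to 13 with 1 array left out; with replicates 3 and 4 only there were 7, without F10, F7, Procr, Serpinb6b and Serpinb9. Among arrays labelled BALB-RAG the count of 0 became 1 (Lcn2) with arrays centred on their medians, values under log2 4 set to 4, the filter at log2 5, the mean of probe sets, or trend and robust moderation. It became 2 (Cfb and Lcn2) with a second quantile normalisation and with replicates 3 and 4 only, and 3 (with C1ra) with a term for replicates 1 and 2 against 3 and 4; leaving out 1 array gave 0 to 2. The 4 differing responses became 2 with replicates 3 and 4 only (C1qa and F7 lost), and 3 to 5 with 1 array left out. Between the lines after OVA, 9 became 3 with replicates 3 and 4 only, and 7 to 11 with 1 array left out. After PBS, 0 became 2 (Procr and Serpina1b) with the term for the replicate sets, 3 with replicates 1 and 2 only (C5ar1 as well), and 0 to 1 with 1 array left out. Fits on one replicate set have 2 arrays per group. The causes of these shifts were not tested.

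Replicate numbers did not pair the samples: deviations from group means correlated by 0.025 to 0.497 between arrays of the same number and by 0.123 to 0.475 between other arrays of the same replicate set, and 6 of 16 arrays correlated best with their own number. With the replicate number as a block, the counts were 14 in BALB/c, 1 on arrays labelled BALB-RAG (Lcn2), 5 for the difference of responses, 12 after OVA and 2 after PBS (Procr and Serpina1b).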
